A study of Mus musculus with 2 samples.

Results

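The insulin-like growth factor (IGF) axis was described in mouse embryonic fibroblasts (MEFs) with and without the Fut8 gene, through 10 genes chosen by name: the ligand gene Igf1, its receptor gene Igf1r, the binding protein genes Igfbp2, Igfbp3, Igfbp4, Igfbp5, Igfbp6 and Igfbp7, and the insulin receptor substrate genes Irs1 and Irs2. Probe sets annotated to exactly 1 of these symbols were taken, which gave 26 probe sets for the 10 genes, among 34945 probe sets for 18193 genes in all. The cells were MEFs, cultured with fetal calf serum, which itself carries growth factors. The groups were Fut8+/+ MEFs with both normal copies of the gene and Fut8-/- MEFs lacking both, each represented by 1 array hybridised with biotin-labelled RNA; no strain, age, passage or time in culture is given in the labels. The design text speaks of 3 cultures of each genotype. Each array is labelled as replicate 1, but the titles are MEF_WT3 and MEF_KO3. The number of dishes behind each array's RNA is thus not known. Fut8 makes the enzyme that adds core fucose to N-glycans of secreted and cell-surface proteins, and the array comparison was made to find gene expression that differs with the loss of Fut8.

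IGF1 is a secreted growth factor that fibroblasts make and respond to. It binds a receptor tyrosine kinase, an N-glycosylated protein encoded by Igf1r, which phosphorylates the docking proteins IRS1 and IRS2 and through them activates PI3-kinase and Akt; Akt in turn activates mTOR and keeps FOXO transcription factors out of the nucleus. The IGF-binding proteins hold the ligand outside the cell, and proteases cut them and free it. IGFBP4 is mostly known as an inhibitor of IGF action and is cut by the protease PAPP-A, while IGFBP7 binds IGFs only weakly.

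Signals are given as deposited, in intensity units. For ratios, Fut8-/- signals were multiplied by 1.16. This set to 0 the median log2 ratio over probe sets above the 40th percentile of each array. Scaled signals under a floor of 12.3 were raised to it. A gene counted as measured where its brighter array reached a scaled signal of 39.1, and was called where the 2 arrays then differed by at least 2-fold; the brightest probe set stood for the gene. Log2 ratios are Fut8-/- over Fut8+/+. With 1 array per genotype no test could be made, so no value below has a replicate check, and the number of arrays limits the precision. The only measure of error at hand was technical: probe sets of the same gene differed in log2 ratio with an SD of 0.40 (5389 genes). This spread leaves out differences between arrays and between cultures, and 53.5% of all measured genes had a log2 ratio within it.

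Of the 10 genes, 7 were measured, and 1 of them, Igfbp4, was called: it was 3.00-fold lower on the Fut8-/- array. The ligand gene Igf1, the receptor gene Igf1r and the binding protein genes Igfbp6 and Igfbp7 lay within 1.22-fold of equal signal, and Irs1, at 1.82-fold higher, was nearest to the limit among the rest. Igfbp2, Igfbp3 and Igfbp5 were too dim to be measured on either array. Among all 10164 measured genes, 8.46% were called lower and 6.08% higher, so 1 lower and 0 higher genes of 7 are counts of the size that the background gives. The median log2 ratio of the 7 was -0.10, with 3 above 0 and 4 below, against 0.00033 for all measured genes. Without centring, which shifts log2 ratios by -0.22 (by less at the floor), 11.8% of measured genes were lower and 4.08% higher, and Igfbp4 was still the only one of the 7 called. The sign of that median turns when each chromosome is centred on its own median (0.04) and when the second brightest probe set stands for the gene (0.19). The value of 0.19 is over 6 genes, since Igfbp7 is not measured in that setting, so the gene set changes along with the probe sets.

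**Figure D1:**
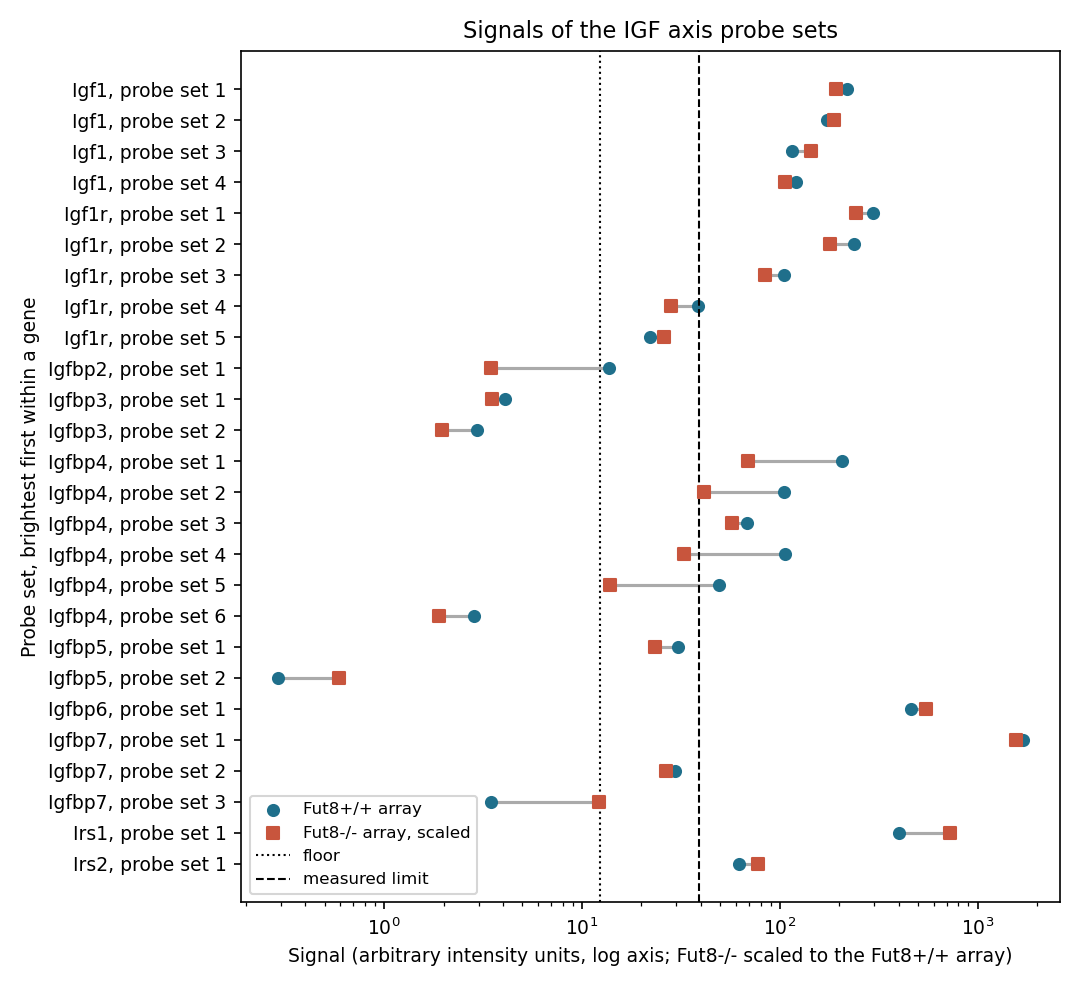
Signals of the 26 probe sets of the 10 genes on the Fut8+/+ array (circles) and, multiplied by 1.16, on the Fut8-/- array (squares), on a log axis in intensity units; the dotted line is the floor of 12.3 and the dashed line the measured limit of 39.1. The pairs of Igfbp4 are far apart in 4 of its 5 probe sets above the floor, while those of Igf1, Igf1r and Igfbp6, and the 2 Igfbp7 pairs above the floor, lie close together; the third Igfbp7 pair is under the floor on both arrays.

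The sequences just before the transcription starts of Igfbp4, the only called gene, and of Irs1 and Irs2, the 2 docking protein genes, are shown as reference for these genes. They are the 250 bases before the start in the RefSeq promoter table for GRCm38.p6, in which all 10 genes matched, with 11 windows because Igfbp2 has 2. Capitals mark matches to TATAAA (the TATA box) or CACGTG (an E-box), searched on both strands; these motifs were chosen after the sequences were seen. The Igfbp4 window is chr11:99040994-99041243 (plus strand), that of Irs1 chr1:82291440-82291689 (minus strand) and that of Irs2 chr8:11008930-11009179 (minus strand).
Igfbp4: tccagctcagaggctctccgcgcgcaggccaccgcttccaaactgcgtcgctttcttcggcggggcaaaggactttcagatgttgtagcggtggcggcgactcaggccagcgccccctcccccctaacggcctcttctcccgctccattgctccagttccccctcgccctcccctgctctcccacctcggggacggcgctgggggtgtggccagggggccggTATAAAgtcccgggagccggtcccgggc
Irs1: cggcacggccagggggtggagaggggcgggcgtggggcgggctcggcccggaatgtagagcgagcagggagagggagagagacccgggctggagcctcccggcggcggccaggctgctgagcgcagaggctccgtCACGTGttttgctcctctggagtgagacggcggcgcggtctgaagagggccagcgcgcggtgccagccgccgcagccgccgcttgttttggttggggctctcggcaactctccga
Irs2: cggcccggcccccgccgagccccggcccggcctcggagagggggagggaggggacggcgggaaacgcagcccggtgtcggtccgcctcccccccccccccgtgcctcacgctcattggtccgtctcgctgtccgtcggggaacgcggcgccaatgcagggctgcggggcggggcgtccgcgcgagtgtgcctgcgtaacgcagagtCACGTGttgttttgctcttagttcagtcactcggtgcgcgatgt
In Igfbp4 the TATAAA match lay 28 to 23 bases before the start, on the sense strand. The E-box match lay 115 to 110 bases before the start in Irs1 and 44 to 39 in Irs2, and Igfbp2 had a further one, so 3 of the 11 windows held it, against 6.02% of all 32851 windows. TATAAA was in 2 of the 11 windows, those of Igfbp4 and Igfbp6, against 12.4% of all. The core FOXO motif GTAAACA, also searched on both strands, was in 0 of the 11 and in 3.17% of all windows. The Igf1 and Igfbp6 windows had 5 and 7 CpG dinucleotides, next to the median of 6 over all windows. The others had more, from 10 in Igfbp5 to 42 in Igf1r, with 22 in Igfbp4, 28 in Irs1 and 34 in Irs2. These matches are descriptions of the letters in a short window.

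The ligand and its receptor had similar signals in both cultures. The 4 probe sets of Igf1 gave signals of 218.5, 173.7, 115.5 and 120.5 on the Fut8+/+ array. On the Fut8-/- array the same probe sets gave 164.8, 161.4, 124.1 and 91.4. After scaling, 2 of them were higher and 2 lower in Fut8-/-, with log2 ratios from -0.19 to 0.32, so the direction of Igf1 depends on the probe set taken. The Igf1 value of its brightest probe set, -0.19, lay inside the spread between probe sets of 1 gene. All 4 probe sets were above the measured limit, so the transcript was detected well in both cultures.

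For Igf1r, the brightest probe set had signals of 295 in Fut8+/+ and 209 in Fut8-/-, a log2 ratio of -0.28 or 1.22-fold lower. Its next 2 probe sets agreed in direction, with signals of 238.0 and 154.5 and of 105.5 and 72.8. The fourth gave 38.5 and 24.2, while the dimmest gave 22.0 and 22.4 and a log2 ratio of 0.25. In all, 4 of the 5 Igf1r probe sets were lower, by 1.22-fold to 1.37-fold, which is about the size of the technical spread. Igf1r lies on chromosome 7, where the median over 714 measured genes was -0.32, with 93 called lower and 11 higher. The 20 measured genes nearest to Igf1r on the chromosome had a median of -0.60, and 12 of them had a lower ratio than Igf1r. Centred on its own chromosome, Igf1r had a log2 ratio of 0.04.

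Igfbp4 had the largest difference of the 7 measured genes. Its brightest probe set had a signal of 207 in Fut8+/+ and 59.3 in Fut8-/-, a log2 ratio of -1.58. A further 3 probe sets showed a difference of similar size: signals of 106.8 and 28.2 (3.25-fold lower), 105.3 and 35.4 (2.55-fold lower) and 49.1 and 11.9 (3.55-fold lower). The fifth probe set, with 68.0 and 49.3, was only 1.18-fold lower, and the sixth was below the floor on both arrays (2.86 and 1.63). All 5 probe sets above the floor were lower in Fut8-/-. Of all measured genes, 4.20% had a lower log2 ratio than Igfbp4.

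The values of the genes around Igfbp4 were as follows. Over the 849 genes measured on chromosome 11 the median was 0.13. Among the 20 measured genes nearest to Igfbp4, the median was -0.09, 3 were called higher and 1 lower. Top2a, the DNA topoisomerase gene that is the nearest measured gene on one side, had signals of 4556 and 4606, and Smarce1, a chromatin remodelling subunit gene and the nearest on the other side, had 645 and 1237. Only the keratin-associated protein gene Krtap3-1, a dim gene with signals of 39.2 and 10.1, had a lower ratio than Igfbp4 in that stretch. These neighbours were chosen by place alone.

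The other binding proteins fell into abundant transcripts with close signals and transcripts near or under the floor. Igfbp7, a secreted protein of the family with low affinity for IGFs, had signals of 1689 and 1352 at its brightest probe set, a log2 ratio of -0.10. A second Igfbp7 probe set gave 29.7 and 22.8, and its last was under the floor on both arrays once scaled (3.47 and 10.5). Igfbp6, which prefers IGF2 over IGF1, had 459 in Fut8+/+ and 474 in Fut8-/-, a log2 ratio of 0.26 after scaling and 0.04 without it. Igfbp7 and Igfbp6 were thus detected in both cultures, each within the technical spread of equal signal.

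Igfbp5, a binding protein that also attaches to extracellular matrix, had 30.5 and 20.2 at its brighter probe set, above the floor but under the measured limit, and 0.292 and 0.509 at the other. Igfbp2, close to it on chromosome 1, had 13.7 in Fut8+/+, just above the floor, and 2.98 in Fut8-/-. Igfbp3, the main carrier of IGFs in serum, was under the floor in both cultures at both of its probe sets (4.11 and 3.02, and 2.93 and 1.68). No ratio is given for these 3 genes. A low signal here may be a low transcript level or a poor probe set, which these arrays cannot tell apart.

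The 2 docking proteins both had higher signals in Fut8-/-, neither by 2-fold. Irs1 had 401 in Fut8+/+ and 627 in Fut8-/-, a log2 ratio of 0.86, and 7.98% of measured genes had a higher ratio. It has a single probe set here, so no other value of the gene stands beside it. The difference was larger than the technical spread of 0.40 but stayed under 2-fold in all 11 alternative settings, where it ranged from 0.64 to 0.86. Irs2, also with 1 probe set, had 62.2 and 66.6, a log2 ratio of 0.32 with scaling and 0.10 without it. The measured genes around Irs1 on chromosome 1 varied widely, from -4.23 to 3.11 with a median of -0.16, and 18 of the 20 had a lower ratio than Irs1.

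**Figure D2:**
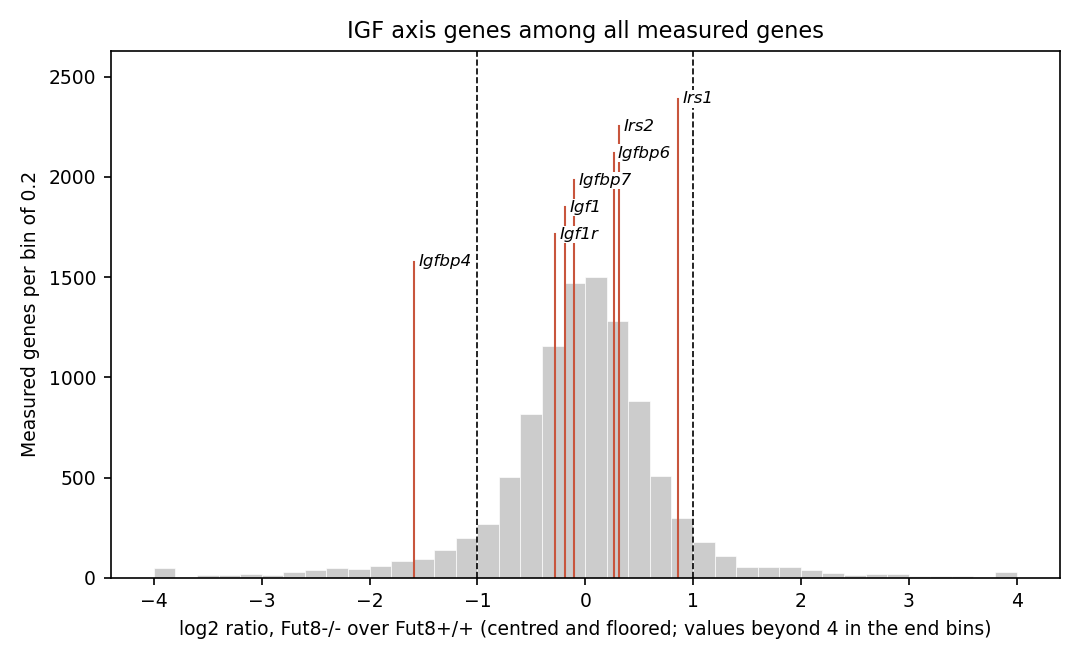
Distribution of the log2 ratio of Fut8-/- over Fut8+/+ across the 10164 measured genes (grey bars, genes per bin of 0.2, values beyond 4 placed in the end bins), with the 7 measured IGF axis genes as lines and the 2-fold limits dashed. Igfbp4, at -1.58, is the single gene of the 7 outside the limits, and Irs1, at 0.86, is close to the upper one.

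**Figure D3:**
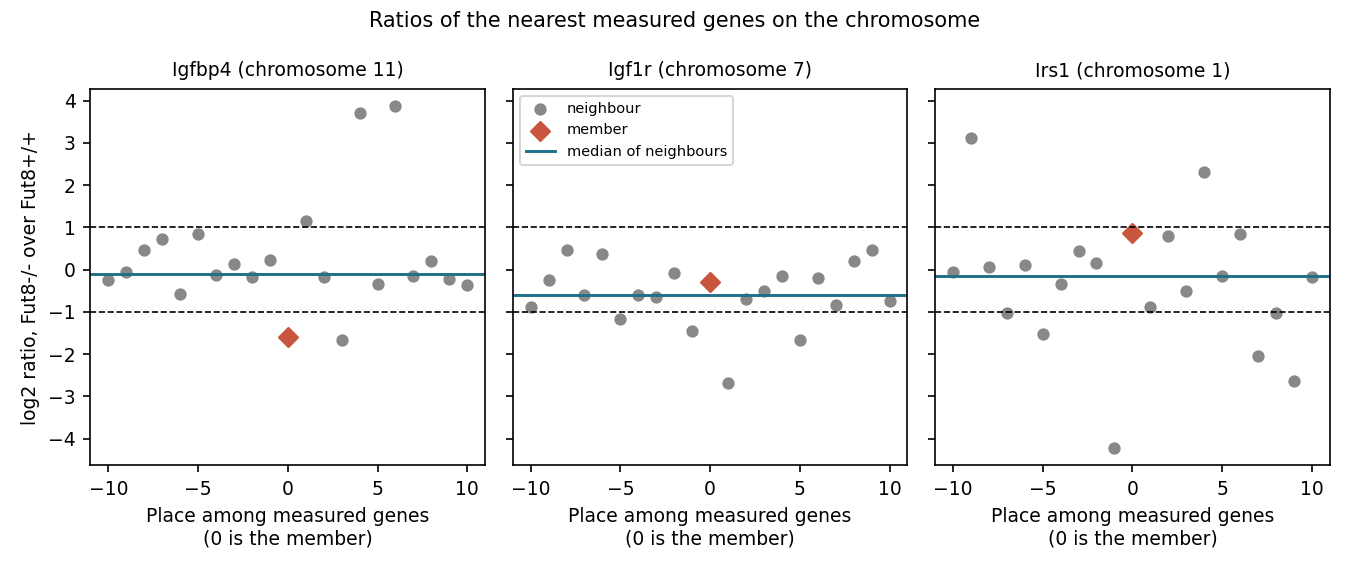
Log2 ratio of Fut8-/- over Fut8+/+ for Igfbp4, Igf1r and Irs1 (diamonds) and for the 10 nearest measured genes on each side (points), placed by order along the chromosome; the solid line is the neighbours' median and the dashed lines are the 2-fold limits. Igfbp4 lies below all but 1 of its neighbours, Igf1r lies within its neighbours' range, and Irs1 lies above 18 of 20.

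The remaining genes of the pathway were read from 9 lists by role, with 119 genes in all, of which 108 had a probe set of their own name here and 84 were measured. Of these, 7 were called higher, 6 lower and 71 lay within 2-fold. That is 8.33% higher and 7.14% lower, near the 6.08% and 8.46% of all measured genes, so the pathway as a whole was not set apart by its counts. Single lists had only 2 to 24 measured genes, so their counts below are descriptions beside these shares, and no list was tested. None of the called genes encodes a kinase of the PI3-kinase, Akt or MAP kinase cascades.

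Among the other ligands, receptors and carriers, 2 of 8 genes on the array were measured. Igf2r, the receptor that takes up and degrades IGF2 and also carries lysosomal enzymes, had signals of 130 and 310 at 1 probe set and 101 and 185 at the other. Both Igf2r probe sets were thus higher in Fut8-/-, by 2.78-fold and 2.13-fold. The insulin receptor gene Insr had 189.6 and 122.3, a log2 ratio of -0.41, and 20.2 and 8.35 at a dimmer probe set. The second ligand gene of the family, Igf2, had 38.1 in Fut8+/+, just under the measured limit, and 4.15 in Fut8-/-; without centring the limit was lower and Igf2 counted as at least 2-fold lower. Igfbp1 (0.688 and 1.20) and Igfals (8.51 and 1.59), whose product stabilises IGFs in serum, were under the floor in both cultures.

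The proteases that cut IGF-binding proteins, listed with their inhibitors, included 7 measured genes, with a median log2 ratio of -0.78. Of the 7, 3 were lower and 1 higher, against 8.46% and 6.08% of all measured genes. The gelatinase gene Mmp2 had signals of 799 and 32.7, and 751 and 32.0 at its second probe set, 21.0-fold and 20.2-fold lower in Fut8-/-. Adam12, a membrane-bound metalloproteinase gene, had 89.8 and 13.1 (5.87-fold lower), and Htra1, a secreted serine protease gene, had 5627 and 1046 (4.62-fold lower). At their other probe set, Htra1 was 4.02-fold lower and Adam12 was at the floor in Fut8-/- (19.1 and 0.702), where it was not called. Mmp2 and Adam12 passed the measured limit only through the Fut8+/+ array, and Adam12 was not called with a filter at the 75th percentile. The higher gene was Pappa2, a protease of IGFBP5, with 21.3 and 48.1; it passed the measured limit only through the Fut8-/- array, was not called with a floor at the 60th percentile or with an offset of 16, and was not measured with a filter at the 75th percentile. Pappa, the protease of IGFBP4 itself, was under the measured limit with 24.2 and 3.44. Adam9 was 1.72-fold lower (2470 and 1234) and was called lower without centring. The inhibitor of PAPP-A, Stc2, had 62.4 and 44.3 at its brightest probe set (1.21-fold lower). Its other 2 probe sets were lower by more, with 64.8 and 15.4 (3.60-fold) and 49.6 and 4.96 (at least 4.01-fold), and Stc2 was called lower with the median over probe sets and with the second brightest. Of the inhibitors, the cystatin gene Cst3 had close signals of 3304 and 3377.

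In the growth hormone input to Igf1, 5 of 6 measured genes lay within 2-fold, the growth hormone receptor gene Ghr among them (510 and 327, log2 ratio -0.42). The exception was Socs2, a feedback inhibitor of that receptor, which was 3.45-fold lower with signals of 99.7 and 24.9, and 85.9 and 12.2 at its second probe set. Another Socs2 probe set, dim on both arrays (9.52 and 13.2), went the other way, and the remaining 3 were under the floor. Socs2 was not called when the median over all its probe sets was used. It passed the measured limit only through the Fut8+/+ array and was not called with a filter at the 75th percentile.

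Inside the cell most steps had close signals. All 15 measured adaptors and receptor regulators lay within 2-fold, from -0.36 to 0.86 on the log2 scale; the highest was Socs3, a suppressor of cytokine signalling that also acts on the insulin receptor, with 371 and 581. All 9 measured genes of the Ras and MAP kinase list also lay within 2-fold (-0.32 to 0.51). Of 24 genes of PI3-kinase, Akt and mTOR signalling 22 did so, among them Akt1 (885 and 640, log2 ratio -0.25), Akt2 (395 and 258, -0.40) and Mtor (385 and 222, -0.58). The PI3-kinase regulatory subunit gene Pik3r1, which binds to IRS proteins, was 1.84-fold higher with 88.1 and 139.6.

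The 2 called genes of that list both encode restraints on the mTOR branch. Deptor, an inhibitor that binds mTOR, was 10.4-fold higher in Fut8-/-, with signals of 62.2 and 553 at its brightest probe set. A further 4 Deptor probe sets were also higher: 44.9 and 582, 25.8 and 339, 16.3 and 172, and 11.9 and 57.0, the last with the Fut8+/+ array at the floor. Eif4ebp1, a repressor of translation that mTOR inactivates, was 2.14-fold lower with 6203 and 2492. Its other probe sets were 1.96-fold and 2.30-fold lower, and with the second brightest Eif4ebp1 was not called.

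Of 13 measured FOXO factors and genes that FOXO factors are known to induce, 2 were called higher and 0 lower. The shares over all measured genes were 6.08% and 8.46%. The median log2 ratio of the 13 was 0.34 (0.12 without centring). Pdk4, a kinase that limits pyruvate oxidation, had 22.3 in Fut8+/+ and 219 in Fut8-/-, 11.4-fold higher; it has 1 probe set here and passed the measured limit only through the Fut8-/- array. Bcl2l11, which encodes the pro-apoptotic protein BIM, had 158 and 382, 2.82-fold higher, and its other 4 probe sets were higher as well, but with the second brightest (152 and 217, 1.66-fold) it was not called. Foxo1 itself was 1.83-fold higher (280 and 440) and the cyclin gene Ccng2 1.76-fold higher (321 and 485), both under the limit, while Gadd45a was 1.45-fold lower (550 and 325). Irs2, known as a FOXO-induced gene too, stayed at the 1.24-fold given above.

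Among other genes whose products carry an IGF-binding protein domain, 2 of 7 measured were higher and 2 lower. Over all measured genes the shares were 6.08% and 8.46%. Ccn5 was 7.13-fold higher (27.2 and 166.8) and Kazald1 2.80-fold higher (23.3 and 56.0), whereas Ccn2, which encodes the connective tissue growth factor, was 4.36-fold lower (1080 and 213); the other lower gene was Htra1, already given with the proteases. Each of Ccn5, Kazald1 and Ccn2 has 1 probe set here. Ccn5 and Kazald1 passed the measured limit only through the Fut8-/- array; Kazald1 was not called with a floor at the 60th percentile and not measured with a filter at the 75th. Both measured genes for IGF2 messenger RNA-binding proteins lay close to equal, with log2 ratios of 0.12 for Igf2bp1 and -0.12 for Igf2bp3.

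**Figure D4:**
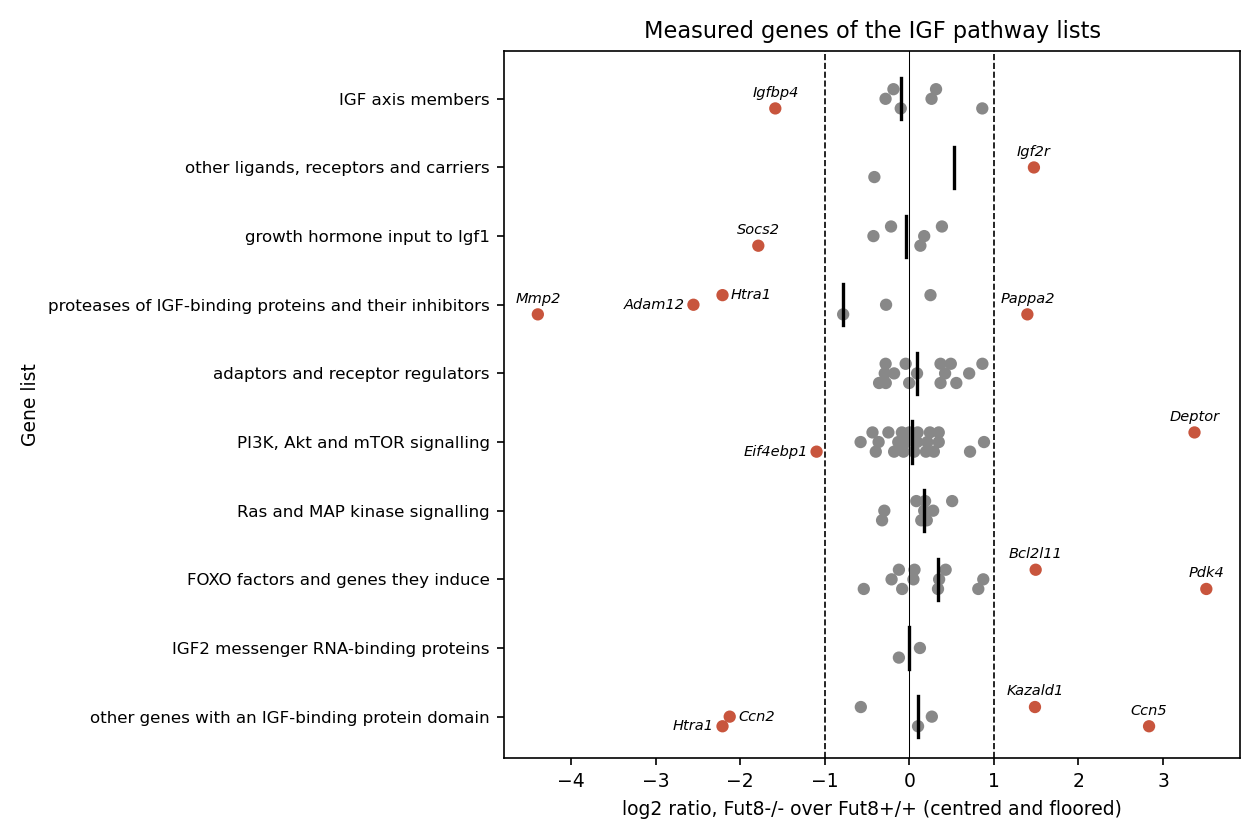
Log2 ratio of Fut8-/- over Fut8+/+ for each measured gene (points) of the 10 IGF axis genes and of the 9 pathway lists, with genes past 2-fold named and in red, list medians as vertical bars and the 2-fold limits dashed. Mmp2 at -4.39 and Pdk4 at 3.51 are the ends of the range, and no gene of the adaptor or the Ras and MAP kinase list passes 2-fold.

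Facts of the whole pair of arrays bear on these values. Fut8 had signals of 190.9 and 11.7 at its brightest probe set, 14.1-fold lower in Fut8-/-; whether that probe set reads the disrupted part of the gene is not given. Sex-linked transcripts differed too (Xist 656 and 15.2, Eif2s3y 7.06 and 2845), and this difference and genotype cannot be told apart. Of 13 fibroblast markers 9 were measured, 3 of them lower and 1 higher in Fut8-/-, against 8.46% and 6.08% of all measured genes. Lower were Prrx1 (221 and 7.26, at the floor in Fut8-/-), Col1a1 (2832 and 941) and Pdgfra (61.9 and 23.6). Pdgfrb was higher (342 and 626), but not called without centring, and Col1a1 and Pdgfra were not called with the second brightest probe set. The list had summed signals of 35967 and 33372, largely from Vim, Col1a2 and S100a4. Sums here and below are as deposited, and with the 1.16 scaling the Fut8-/- fibroblast sum is the higher. The other marker lists had summed signals of 113.8 and 239.8 (epithelial, 2 of 8 measured), 71.3 and 46.1 (endothelial, 0 of 7), 250.9 and 142.0 (leukocyte, 2 of 7), 141.5 and 123.5 (skeletal muscle, 3 of 7), 610.4 and 2906 (chondrocyte and bone, 2 of 6), 87.7 and 57.7 (adipocyte, 1 of 6), 815.7 and 190.3 (neural, 4 of 7) and 955.6 and 84.2 (hepatocyte, 1 of 5). The hepatocyte sum was nearly all Afp (942 and 67.3), the chondrocyte and bone sum largely Ogn (443 and 2810) and the epithelial difference that of Krt19 (2.08 and 155), while Sox9 (log2 ratio -0.93) and Epcam (44.9 and 15.9) were lower. For hepatocytes, the defining marker Alb was at 1.55 and 3.32. Alb and the defining markers Cdh1, Pecam1, Ptprc, Col2a1 and Adipoq were under the floor on both arrays. So was the fibroblast marker Dcn (4.24 and 8.10), while Thy1, Lum and Fap were under the measured limit. Of the 4 measured neural markers 3 were called lower, against 8.46% of all measured genes. These were Sox2 (119 and 2.36, at the floor in Fut8-/-), Nes (522 and 93.9) and Tubb3 (100 and 22.4). The fourth, Map2, was 1.61-fold higher (48.2 and 66.5). The part of these differences in the IGF axis values was not tested, and in RNA from a whole culture fewer cells of a type and less RNA per cell cannot be told apart.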

How the data were processed

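RNA of Fut8+/+ and of Fut8-/- MEFs was measured on 1 array each. The deposited values are signal intensity on a linear scale, made with GCOS per the submitters' processing notes; how signals were computed and scaled is not stated in the labels, and the median signals of 20.5 and 16.9 differ between the arrays. Probe sets were named by the platform annotation (34945 with 1 symbol, 932 with several, 9160 with none, 64 controls). Entrez identifiers of 34741 matched the RefSeq gene table of GRCm38.p6, which changed 0 symbols and gave chromosomes and gene order.

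Centring subtracted the median log2 ratio (-0.22) of the probe sets that exceeded the 40th percentile of each array, scaled signals were floored at the pooled 40th percentile, and measured genes reached the pooled 60th percentile. Without centring, 416 genes were called higher and 1205 lower in place of 618 and 860. Ratios with 1 array at the floor are lower bounds. Promoter windows and the nearest 10 measured genes on each side were an addition made with the values in view. Named genes were the 10 genes, Fut8, Igf2r, Insr and up to 4 called genes of each list; all others were picked with their values in view. The 10 genes and the lists were chosen with earlier results of these data known. No likeness of pattern between genes can be formed from 2 arrays. The steps were tested on simulated data in which only bright genes differed, by well over 2-fold, so calls near 2-fold or of dim genes were not tried. They were run in Python 3.11.15 with numpy 2.4.6, pandas 2.3.3 and statsmodels 0.14.6. The 11 alternative settings are given in the closing section.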

Additional observations from a re-analysis of the deposited data

How the results depend on the processing

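Each value of the 10 genes was recomputed under 11 alternatives: no centring, quantile normalization, loess (span 0.4), centring by chromosome, a floor at the 20th or 60th percentile, an offset of 16 in place of the floor, no filter on the brighter array, a filter at the 75th percentile, the median over probe sets, and the second brightest probe set. Igfbp2, Igfbp3 and Igfbp5 were measured only with no filter, where the floor still limits the ratios of Igfbp2 and Igfbp3. Igfbp4 was the 1 called gene in all 11 and 0 were called higher, with 6 or 7 genes measured, or 10 with no filter. Its log2 ratio ranged from -1.80 to -1.35, that of Igf1 from -0.41 to 0.11, Igf1r from -0.50 to 0.04, Igfbp6 from 0.04 to 0.33, Igfbp7 from -0.32 to -0.04, Irs1 from 0.64 to 0.86 and Irs2 from 0.10 to 0.38. The median of the measured genes ranged from -0.32 (no centring) to 0.19. Each of these values moved by less than the SD between probe sets of 1 gene. Igf1 was above 0 only with the second brightest probe set (0.11), and Igf1r only with centring by chromosome (0.04). What lies behind these differences was not tested. Igfbp7 has no value with the second brightest probe set, which is under the measured limit, and Irs2 is not measured under the stricter filter. Over the pathway lists, 5 to 7 genes were called higher and 4 to 8 lower, and the genes called were in part others: with the second brightest probe set Pik3r1 and Stc2 were called, and Bcl2l11, Adam12 and Eif4ebp1 were not. Over all genes, the filter at the 75th percentile left 332 higher and 448 lower in place of 618 and 860, fewer genes being tested (7409).

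No paired analysis was possible because each genotype has 1 array, and no array was left out for the same reason. The scanner's background correction was not varied, since the table holds 1 value per probe set. Signal over background limits what can be said of Igfbp2, Igfbp3 and Igfbp5.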
